A study of Mus musculus with 6 samples.

Results

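The interferon response genes described here are 31 genes of a curated list of transcripts that interferons induce, read from the 31791 gene names on a mouse whole-genome Agilent array. Of these, 20 were classed as targets of type I interferons and 10 as targets of type II interferon, and Cxcl10, which answers both, was placed in neither class. A gene was taken where a probe carries its name, and the probe with the highest mean signal stood for it. All 31 genes had a probe, 8 of them more than 1, and 29 passed the filter on background. The RNA came from whole ovaries of C57BL/6J female mice of 20 weeks. The wild type group has 3 ovary samples. The SeBP1 knockout group also has 3, and it lacks selenium-binding protein 1, gene symbol Selenbp1. No agent was given to either group, as far as the labels say, and the part of the gene that was deleted and the cells in which it was deleted are not given there. The labels number the samples within each group but do not say that each is a separate animal, so a p-value here reflects sample-to-sample spread that may be technical.

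Interferons are secreted proteins that cells release when they sense foreign nucleic acid or are stimulated as immune cells. Type I interferons bind the IFNAR receptor, and the kinases JAK1 and TYK2 then switch on a transcription factor complex, with STAT2 and IRF9 among its subunits, that binds interferon-stimulated response elements. Type II interferon, or interferon gamma, binds the IFNGR receptor, and its signal reaches gamma-activated sequences in the promoters of its targets. The ovary holds resident macrophages and other leukocytes beside its follicles, corpora lutea and stroma, and low levels of such transcripts are present in many uninfected tissues.

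The promoters are shown first, as a description of where both elements can be read. Their part in the values that follow was not tested. RefSeq promoter windows of assembly GRCm38.p6, from 250 bases before to 50 after the start, were matched for 26 of the 31 members (Iigp1, Mx1, Mx2, Oas2 and Usp18 had no entry). Each window was searched on both strands for GAAANNGAA, the core of the response element, and for TTCNNNGAA, the core of the gamma-activated sequence, and matches may overlap each other. Capitals mark the matches in the stretches printed here, which end 1 base before the start except for Cxcl10.
Isg15: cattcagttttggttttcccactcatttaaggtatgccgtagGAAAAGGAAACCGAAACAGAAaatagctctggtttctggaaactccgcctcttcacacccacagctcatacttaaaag
Ifit1: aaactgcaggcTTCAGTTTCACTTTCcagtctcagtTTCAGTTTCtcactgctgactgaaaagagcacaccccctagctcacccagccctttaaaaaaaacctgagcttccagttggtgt
Rsad2: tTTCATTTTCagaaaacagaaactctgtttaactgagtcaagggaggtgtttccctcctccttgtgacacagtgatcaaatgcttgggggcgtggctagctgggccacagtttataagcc
Gbp2: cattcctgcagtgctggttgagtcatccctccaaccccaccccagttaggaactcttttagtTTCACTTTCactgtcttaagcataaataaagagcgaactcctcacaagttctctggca
Igtp: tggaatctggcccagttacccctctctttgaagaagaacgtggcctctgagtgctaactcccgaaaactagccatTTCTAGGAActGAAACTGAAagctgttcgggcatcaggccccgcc
Irf1: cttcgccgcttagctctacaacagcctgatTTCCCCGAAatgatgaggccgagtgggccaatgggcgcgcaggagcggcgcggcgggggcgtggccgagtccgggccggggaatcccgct
Psmb8: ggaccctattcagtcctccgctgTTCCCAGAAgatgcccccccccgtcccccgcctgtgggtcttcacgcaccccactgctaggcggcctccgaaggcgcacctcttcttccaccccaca
Cxcl10: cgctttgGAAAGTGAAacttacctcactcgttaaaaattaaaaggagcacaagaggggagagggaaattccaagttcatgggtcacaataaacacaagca

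Isg15 (chr4:156200819-156200938 on the minus strand) has 3 overlapping matches to the response element, which begin 78, 72 and 66 bases before the start. Ifit1 (chr19:34640769-34640888 on the plus strand) also has 3, at 109, 103 and 84 bases, all read on the opposite strand. Rsad2 (chr12:26456453-26456572 on the minus strand) has 1 at 119 bases and Gbp2 (chr3:142620543-142620662 on the plus strand) has 1 at 58 bases. Igtp (chr11:58199436-58199555 on the plus strand) has both motifs close together, the gamma-activated sequence at 45 bases and the response element at 34. Irf1 (chr11:53769894-53770013 on the plus strand) and Psmb8 (chr17:34198075-34198194 on the plus strand) have only the gamma-activated core, at 90 and 97 bases. In Cxcl10 the stretch from 220 to 121 bases before the start is printed (chr5:92349010-92349109 on the minus strand), and its match begins at 213 bases.

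A gene was counted when any of its windows held a match. The response element core was found in 17 of the 26 members, or 65.4%, against 9.76% of all 27025 genes with a window. By class it was found in 11 of 16 type I targets and in 5 of 9 type II targets. The gamma-activated core was found in 6 of 26 members, namely Ifit2, Irf1, Oas1a, Igtp, Bst2 and Psmb8, or 23.1% against 9.55% of all genes. By class that is 3 of 16 type I targets and 3 of 9 type II targets. Oas1a, Igtp and Bst2 had both, and 1.42% of all genes did. A match is a description of the letters in this window and no more.

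Signal is given as the log2 level relative to the 75th percentile of its array, so 0 stands for a probe as bright as that percentile, and levels of different probes are not set against each other. The share of spots well above background ran from 61.6% in wild type replicate 3 to 69.3% in knockout replicate 3, and the 75th percentile of the processed intensity ran from 1309 to 1759 units, again lowest in wild type replicate 3. The 6 arrays came from 2 slides with separate scans. Wild type replicates 1 and 2 shared slide 1, while all 3 knockouts shared slide 2 with wild type replicate 3. A comparison within slide 2 therefore rests on wild type replicate 3 alone. Selenbp1, the check of the labels, was at 2.68, 2.53 and 2.59 in wild type and at -0.11, 0.02 and -0.37 in the knockout, a log2 difference (knockout minus wild type, with its standard error, SE) of -2.75 (SE 0.13, limma, adjusted p = 0.0104). This call was lost with slide as a fixed block, on slide 2 alone, with the replicate block, without the filter on background, and when either of the wild types of slide 1, or knockout replicate 1 or 3, was left out. Each of these left 0 probes called.

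No interferon response gene passed the test between knockout and wild type. Of the 29 genes tested with limma, 0 had a Benjamini-Hochberg adjusted p under 0.05, and the adjusted p was 1.00 for each. Of all 19435 genes tested, 0.00515% were called, which is Selenbp1 alone. At an unadjusted p under 0.05, 1 member (Iigp1) was higher in the knockout and 0 were lower, against 2.27% of all genes higher and 1.90% lower. The groups did not overlap in 3 members, all higher in the knockout (Rsad2, Iigp1 and Cxcl10), and in 0 lower, against 3.99% of all genes higher and 4.89% lower. By sign alone, 22 of the 29 differences were above 0 and 7 below, against 45.5% above 0 among all genes. The median difference over the members was 0.11, against -0.02 over all genes. Among the 29, Cxcl9 passed the filter through the knockout alone. Of the 28 members well above background on all 6 arrays, 21 were above 0, with a median of 0.09. The direction depends on wild type replicate 3, since 12 of the 29 were above 0 and the median was -0.06 without it, and 26 of the 29 were above 0 with a median of 0.38 on slide 2 alone. The median was 0.03 without knockout replicate 3 and 0.22 without knockout replicate 2. With normexp background correction it was 0.05 and 17 of the 29 were above 0, and with array weights it was 0.02 and 16 were. Which members had an unadjusted p under 0.05 changed with the slide term. With slide as a fixed block Iigp1 was not among them (limma, unadjusted p = 0.0731). There 5 others were, all higher in the knockout (Ifit2, Ifit3, Irf1, Mx2 and Igtp), with a smallest adjusted p of 0.305. The share among all probes rose too, with 2389 of the 24415 probes under that threshold with the block, against 964 without it. With the block the genotype difference again rests on wild type replicate 3 as the only wild type of slide 2.

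In the transcription factors that carry the interferon signal the levels overlapped between genotypes. Irf1, a factor that interferon gamma induces strongly, was at 2.36, 2.12 and 1.55 in wild type replicates 1 to 3 and at 2.30, 2.24 and 2.19 in the knockouts (probe on chromosome 11 at 53590746 to 53590805, mm9). Its low value in wild type replicate 3 lay apart from 5 values close together, and the difference was 0.24 (SE 0.21), or 0.01 without that sample. Irf7, the factor that amplifies type I interferon production, was at -2.50, -2.46 and -2.94 in wild type and at -2.02, -2.93 and -2.29 in the knockout. In it, wild type replicate 3 and knockout replicate 2 were equally low, and the difference was 0.22 (SE 0.26). Irf9, the DNA-binding subunit of the complex that type I interferon switches on, was at 0.91, 0.93 and 0.69 in wild type and at 0.83, 0.46 and 1.00 in the knockout. The same pair of ovaries held the lowest values, and the difference was -0.08 (SE 0.17). Stat2, which encodes another subunit of that complex, differed least among ovaries, with a range of 0.24 over the 6. It was at 0.40, 0.44 and 0.47 in wild type and at 0.28, 0.51 and 0.52 in the knockout, a difference of 0.00 (SE 0.11).

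Both cytosolic RNA sensors overlapped between genotypes. Ifih1, which encodes MDA5, was at -0.76, -0.78 and -1.01 in wild type and at -1.00, -0.70 and -0.96 in the knockout, a difference of -0.04 (SE 0.13). Ddx58, which encodes RIG-I, was at 0.31, 0.07 and -0.28 in wild type and at 0.01, -0.04 and 0.13 in the knockout. Its knockouts lay inside the wild type range, and the difference was 0.00 (SE 0.17).

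The IFIT proteins, which bind viral RNA and hold back its translation, were lowest in wild type replicate 3 in all 3 genes. Ifit1 was at -2.92, -3.08 and -3.60 in wild type and at -3.32, -3.02 and -2.85 in the knockout. Ifit2 was at -4.08, -3.99 and -4.63 in wild type and at -4.02, -4.14 and -4.14 in the knockout. Ifit3 was at -1.97, -1.75 and -2.84 in wild type and at -1.84, -2.17 and -2.07 in the knockout. The differences were 0.14, 0.13 and 0.16 with SEs of 0.21, 0.19 and 0.29. Each of the 3 turned below 0 without wild type replicate 3, at -0.06, -0.06 and -0.17. The 3 genes lie near each other on chromosome 19, with probes between 34650244 and 34723855 (mm9), so they are not independent members of the list.

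The oligoadenylate synthetase family holds enzymes whose product switches on RNase L and proteins that resemble them. Here too both genotypes overlapped. Oas1a was at -0.14, -0.07 and -0.74 in wild type and at 0.02, -0.76 and -0.14 in the knockout. Wild type replicate 3 and knockout replicate 2 stood together well below the other ovaries in it. Oas2 was at -2.93, -2.27 and -3.15 in wild type and at -2.52, -3.20 and -2.74 in the knockout. Oasl2 was at 1.18, 0.94 and 0.68 in wild type and at 0.84, 0.81 and 1.22 in the knockout. Oasl1 varied less, at -0.84, -1.07 and -1.08 in wild type and -1.08, -0.83 and -0.75 in the knockout. The differences of Oas1a, Oas2, Oasl2 and Oasl1 were 0.02, -0.04, 0.02 and 0.11, with SEs of 0.27, 0.28, 0.18 and 0.13. Oas3 was well above background on 0 of 6 arrays and was not tested.

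Among the other antiviral effectors Rsad2 was the gene whose groups did not overlap. Rsad2, which encodes viperin, was at -3.54, -3.45 and -3.47 in wild type and at -3.17, -3.44 and -3.30 in the knockout (chromosome 12, 27127859 to 27127918, mm9). All 3 knockouts lay above all 3 wild types, but knockout replicate 2 cleared the highest wild type only narrowly. The difference was 0.18 (SE 0.11, limma, unadjusted p = 0.146). Mx2, of the family of dynamin-like Mx GTPases, was at -3.18, -3.00 and -3.79 in wild type and at -2.94, -3.00 and -2.62 in the knockout. Its lowest value was again wild type replicate 3, and the difference was 0.47 (SE 0.23, limma, unadjusted p = 0.0857), or 0.23 without that sample. Mx1, its nuclear relative, was well above background on 0 wild type and 2 knockout arrays. Its knockout mean of -6.43 lay under the floor of signals well above background on the wild type arrays, so no fold is given. C57BL/6J mice are known to carry a defective Mx1 gene, and RNA levels do not show whether Mx2 gives a working protein in them.

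Bst2, which encodes tetherin, was the only member with its highest value in wild type replicate 3. It was at 4.06, 4.26 and 4.65 in wild type, and at 4.36, 3.81 and 4.22 in the knockout (chromosome 8, 74058603 to 74058662, mm9). The difference was -0.19 (SE 0.21). Ifi44, an antiviral protein of the cytoplasm, spread most among the type I targets that passed the filter, over a range of 1.36. It was at -2.97, -2.68 and -4.04 in wild type and at -2.80, -3.72 and -2.96 in the knockout. Far below the other ovaries lay wild type replicate 3 and knockout replicate 2, and the difference was 0.07 (SE 0.41).

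The ISG15 system, a ubiquitin-like protein and the enzyme that removes it, showed the same pair of low ovaries. Isg15 was at 0.81, 1.01 and 0.42 in wild type and at 0.85, 0.38 and 1.16 in the knockout (chromosome 4, 155573649 to 155573708, mm9). Usp18, the protease that takes ISG15 off its targets and also damps the type I receptor, was at -2.22, -2.04 and -2.98 in wild type and at -2.31, -3.02 and -2.07 in the knockout. In both genes wild type replicate 3 and knockout replicate 2 nearly coincided below the rest. The differences were 0.05 (SE 0.24) for Isg15 and -0.06 (SE 0.33) for Usp18. A separate Isg15 probe gave -2.93, -2.64 and -3.50 in wild type and -2.81, -3.56 and -2.57 in the knockout, with the same 2 ovaries lowest.

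Among the interferon-induced GTPases Iigp1 differed most, although it did not pass the adjusted threshold. Iigp1, an immunity-related GTPase that attacks the vacuoles of intracellular parasites, was at -2.60, -2.88 and -2.43 in wild type and at -2.07, -2.11 and -1.99 in the knockout (chromosome 18, 60551352 to 60551411, mm9). The 3 knockouts lay close together above all 3 wild types. The difference was 0.58 (SE 0.14), or 1.49-fold (limma, unadjusted p = 0.00558, adjusted p = 1.00). It was 0.37 on slide 2 alone (limma, unadjusted p = 0.0859), and 0.45 for the mean of its probes (limma, unadjusted p = 0.0648). Leaving out each ovary in turn gave 0.46 to 0.68. A separate Iigp1 probe did not separate the groups. It read -4.02, -4.58 and -4.79 in wild type and -4.32, -4.62 and -3.48 in the knockout, a difference of 0.32 (SE 0.34).

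The other GTPases overlapped between genotypes. Igtp was at 0.69, 0.45 and 0.06 in wild type and at 0.66, 0.43 and 0.72 in the knockout. Irgm1, which regulates the family, was at 0.35, 0.27 and -0.16 in wild type and at 0.30, 0.05 and 0.34 in the knockout. In both the lowest value was wild type replicate 3, and the differences were 0.20 (SE 0.18) and 0.07 (SE 0.17). Gbp2, a guanylate-binding protein, was at 1.93, 1.48 and 1.74 in wild type and at 1.21, 1.60 and 1.79 in the knockout. Gbp3 was at -0.01, -0.17 and -0.41 in wild type and at -0.30, -0.66 and -0.22 in the knockout. Both had differences below 0, of -0.18 (SE 0.19) and -0.20 (SE 0.17).

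Both chemokines bind CXCR3, a receptor of activated T cells. Cxcl10 was at -2.16, -2.07 and -2.15 in wild type and at -1.32, -2.04 and -1.77 in the knockout (chromosome 5, 92775781 to 92775840, mm9). The wild types lay close together, with an SD of 0.05, and knockout replicate 2 just above them, while knockout replicate 1 stood highest. The difference was 0.42 (SE 0.19, limma, unadjusted p = 0.0672). Cxcl9 was at -4.79, -5.08 and -6.01 in wild type, where 2 of 3 arrays were well above background, and at -4.50, -4.69 and -6.24 in the knockout. All 3 knockout arrays were well above background, so it passed the filter through the knockout alone. In it, 1 ovary of each genotype was low, and the difference was 0.15 (SE 0.53). A separate Cxcl9 probe gave 0.74 (SE 0.33), also with overlapping groups.

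The genes of class I antigen processing overlapped between the genotypes in each case. Psmb8, an immunoproteasome subunit, was at 0.52, 0.33 and 0.30 in wild type and at 0.76, 0.32 and 0.96 in the knockout. Psmb9, its companion subunit, was at 0.73, 0.58 and 0.50 in wild type and at 0.80, 0.62 and 1.00 in the knockout. Tap1, a subunit of the transporter that carries peptides into the endoplasmic reticulum, was at -2.59, -2.59 and -2.44 in wild type and at -2.08, -2.69 and -2.20 in the knockout. In all 3 genes knockout replicates 1 and 3 stood above all wild types while knockout replicate 2 lay among or below them. The differences were 0.30, 0.21 and 0.22 with SEs of 0.18, 0.14 and 0.18. The 3 genes are neighbours on chromosome 17, with probes between 34319174 and 34337830 (mm9).

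**Figure D1:**
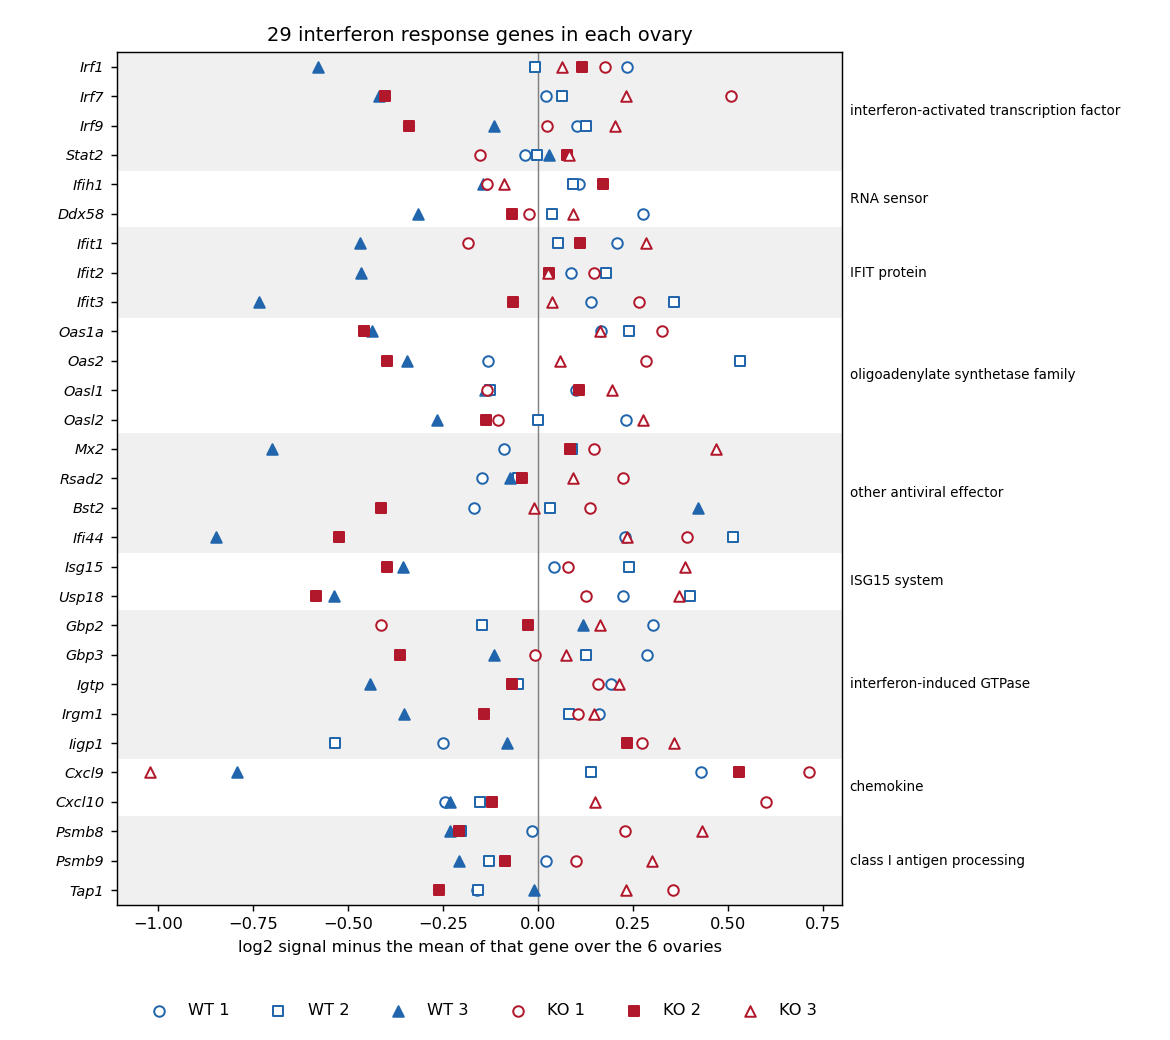
Log2 signal of the 29 tested interferon response genes in each ovary, minus the mean of that gene over the 6 ovaries, with 1 row per gene, grouped by role. Filled triangles (wild type replicate 3, WT 3) and filled squares (knockout replicate 2, KO 2) lie to the left of 0 in most rows, while for Iigp1 the 3 knockouts lie to the right of the 3 wild types.

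The values differed between ovaries of 1 genotype more than between genotypes. Each gene was centred on its mean over the 6 ovaries, and the median over the list was taken in each ovary. For all 29 genes it was 0.10, 0.05 and -0.31 in wild type and 0.15, -0.09 and 0.16 in the knockout. The genotype means of these medians were -0.05 ± 0.23 (SD, n = 3) and 0.07 ± 0.14 (SD, n = 3), and the groups overlapped. Over all genes the same medians stayed between -0.04 and 0.02. Wild type replicate 3 held the lowest value in 15 of the 29 genes, or 51.7%, against 24.4% of all genes. Knockout replicate 2 held it in 8, or 27.6%, against 21.0% of all genes. Knockout replicate 3 held the highest value in 11 of the 29, against 14.9% of all genes.

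These 2 ovaries were together the lowest pair in 14 of the 29 genes, or 48.3%, against 7.43% of 19229 genes with a value on every array. The pair was chosen after its values were seen, and the count is a description. Of the 14 genes, 10 were type I targets (Ifit3, Isg15, Irf7, Irf9, Oas1a, Oas2, Oasl2, Usp18, Ifi44 and Ddx58), out of 18 tested. The others were Gbp3, Igtp, Irgm1 and Psmb8. Wild type replicate 3 is also the array with the lowest share of spots well above background and the only wild type on slide 2. The part of signal strength and slide in this pattern was not tested.

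**Figure D2:**
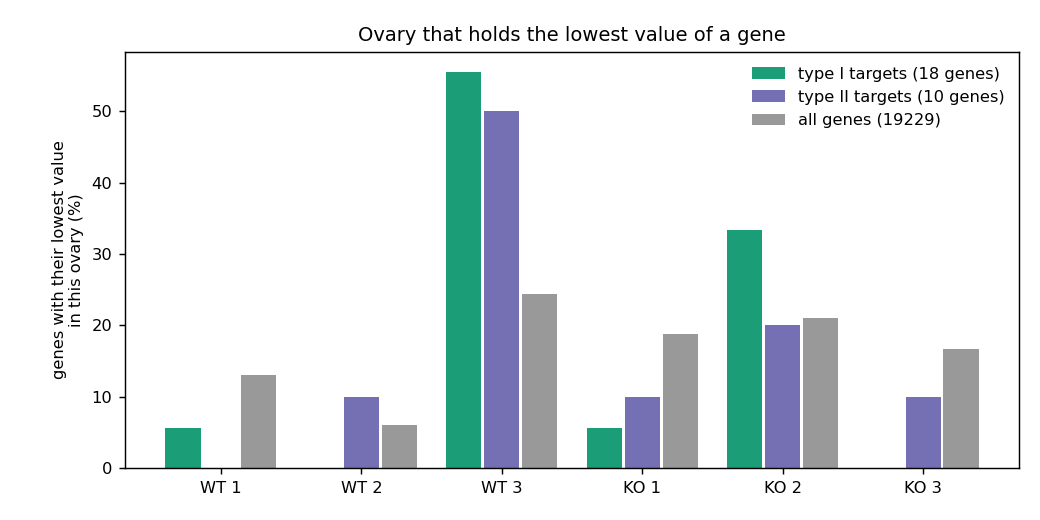
Percent of genes whose lowest log2 value fell in each ovary, for 18 type I targets, 10 type II targets and 19229 genes. Wild type replicate 3 (WT 3) held the lowest value of 55.6% of type I targets and 5 of the 10 type II targets, against 24.4% of all genes.

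Type I and type II targets followed each other across the ovaries. The type I list median was 0.10, 0.09 and -0.35 in wild type and 0.13, -0.10 and 0.18 in the knockout. The type II list median was 0.18, -0.09 and -0.22 in wild type and 0.17, -0.08 and 0.19 in the knockout. The lists parted most in wild type replicate 2, where type I minus type II was 0.18, against -0.07 and -0.13 in the other wild types. In the knockouts that value was -0.03, -0.03 and -0.01. Its difference between genotypes was -0.02, inside the wild type spread of -0.01 ± 0.17 (SD, n = 3).

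By single genes, 13 of 18 type I targets had a difference above 0, with a median of 0.03, and 8 of 10 type II targets did, with a median of 0.21. The type II count includes Cxcl9, which passed the filter through the knockout alone. The type II median was also 0.21 without Cxcl9. The range over single genes was -0.19 to 0.47 in the type I list and -0.20 to 0.58 in the type II list. Both medians move with wild type replicate 3. Without it they were -0.11 for type I and 0.02 for type II, and on slide 2 alone they were 0.35 and 0.38. The type I median also lay below 0 without knockout replicate 3 (-0.03), with array weights (-0.03) and with normexp background correction (-0.003). The order of the 2 classes was not tested.

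**Figure D3:**
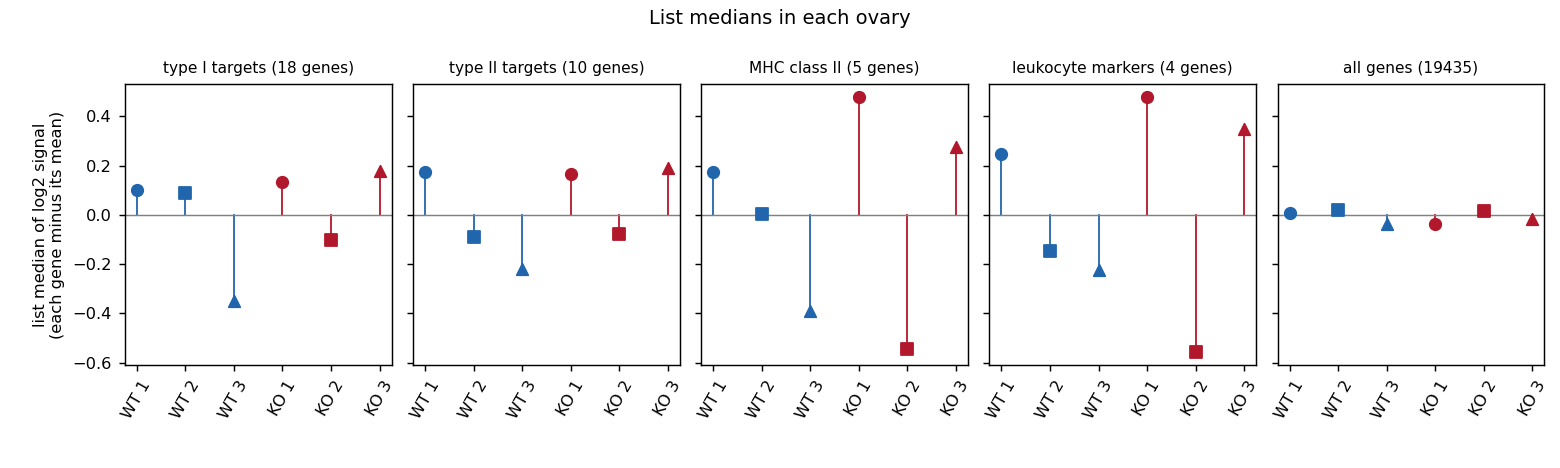
Median log2 signal of each list in each ovary after centring each gene on its mean over the 6 ovaries, for type I targets, type II targets, MHC class II genes, leukocyte markers and all genes. Wild type replicate 3 (WT 3) and knockout replicate 2 (KO 2) lie below 0 in the first 4 panels, and all genes stay between -0.04 and 0.02. Wild type replicate 2 (WT 2) also lies below 0 for type II targets (-0.09) and leukocyte markers (-0.15).

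Some lists of immune cell markers were low in the same ovaries and others were not. The list median of 4 markers of all leukocytes (Ptprc, Cd53, Coro1a and Laptm5) was 0.25, -0.15 and -0.22 in wild type and 0.48, -0.56 and 0.35 in the knockout. That of 5 MHC class II genes, which antigen-presenting cells express and interferon gamma induces, was 0.18, 0.00 and -0.39 in wild type and 0.48, -0.55 and 0.28 in the knockout. That of 9 macrophage markers was 0.10, -0.14 and -0.19 in wild type and 0.40, -0.41 and 0.18 in the knockout. In these 3 lists knockout replicate 2 was lowest and knockout replicate 1 highest. The 8 T and NK cell markers tested went another way, with list medians of -0.14, -0.11 and 0.04 in wild type and 0.27, -0.08 and 0.22 in the knockout, so wild type replicate 3 was the highest wild type. That of 2 plasmacytoid dendritic cell markers was -0.35, -0.07 and 0.09 in wild type and -0.09, -0.08 and 0.50 in the knockout, and that of 3 B cell markers was 0.26, 0.13 and -0.24 in wild type and 0.24, -0.59 and -0.02 in the knockout. All 18 genes of the first 3 lists were well above background on all 6 arrays. Their part in the interferon pattern was not tested, and in whole ovaries fewer cells of a type and less RNA per cell cannot be told apart.

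The summed linear signal, in multiples of the 75th percentile, overlapped between genotypes in each list. It was 1.28 to 1.62 in wild type and 1.04 to 2.08 in the knockout for leukocyte markers. It was 23.5 to 34.8 and 21.2 to 42.9 for MHC class II, and 15.1 to 17.1 and 14.2 to 20.8 for macrophage markers. T and NK cell markers summed to 2.81 to 3.01 in wild type and 2.82 to 3.31 in the knockout, with 7 of 11 well above background on all arrays and Cd8a and Ncr1 on none. Of 4 B cell markers 2 were well above background on all arrays, as were 2 of 3 plasmacytoid dendritic cell markers (Siglech and Ly6d). The remaining one, Ccr9, was well above background on 2 wild type and 0 knockout arrays. The plasmacytoid list summed to 24.7 to 33.2 in wild type and 29.1 to 35.5 in the knockout. Most of this sum is Siglech, at 4.62, 4.68 and 5.04 in wild type and 4.99, 4.85 and 5.13 in the knockout. Whether this signal comes from plasmacytoid dendritic cells, known as strong producers of type I interferon, was not tested.

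Some single immune markers had groups that did not overlap, although none passed the adjusted threshold. Cd68, a lysosomal protein of macrophages, was at -3.12, -3.39 and -2.97 in wild type and at -2.13, -2.87 and -2.20 in the knockout, a difference of 0.76 (SE 0.23). Cd3g, a chain of the T cell receptor complex, was at -4.52, -4.55 and -5.03 in wild type and at -3.96, -4.32 and -3.89 in the knockout, a difference of 0.65 (SE 0.19). Cd3d, another chain, was at -3.57, -3.98 and -4.56 in wild type and at -3.04, -3.51 and -3.05 in the knockout, a difference of 0.84 (SE 0.27). These 3 genes were picked for this after their values were seen, and 3.99% of all genes were higher in every knockout than in any wild type. The other macrophage and T and NK cell markers tested overlapped and did not share the direction throughout. In all, 7 of 9 macrophage markers and 6 of 8 T and NK cell markers had a difference above 0. Their median differences were 0.19 and 0.07. Also above 0 were 4 of 4 leukocyte markers and 5 of 5 MHC class II genes, but only 1 of 3 B cell markers. Prf1 differed by 0.37 (SE 0.19) and C1qc by 0.29 (SE 0.27). Cd3e, the remaining CD3 chain listed, differed by 0.01 (SE 0.16), Cd4 by -0.03 (SE 0.09), Gzmb by -0.17 (SE 0.47), Csf1r by -0.03 (SE 0.20) and Cd14 by -0.30 (SE 0.37).

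**Figure D4:**
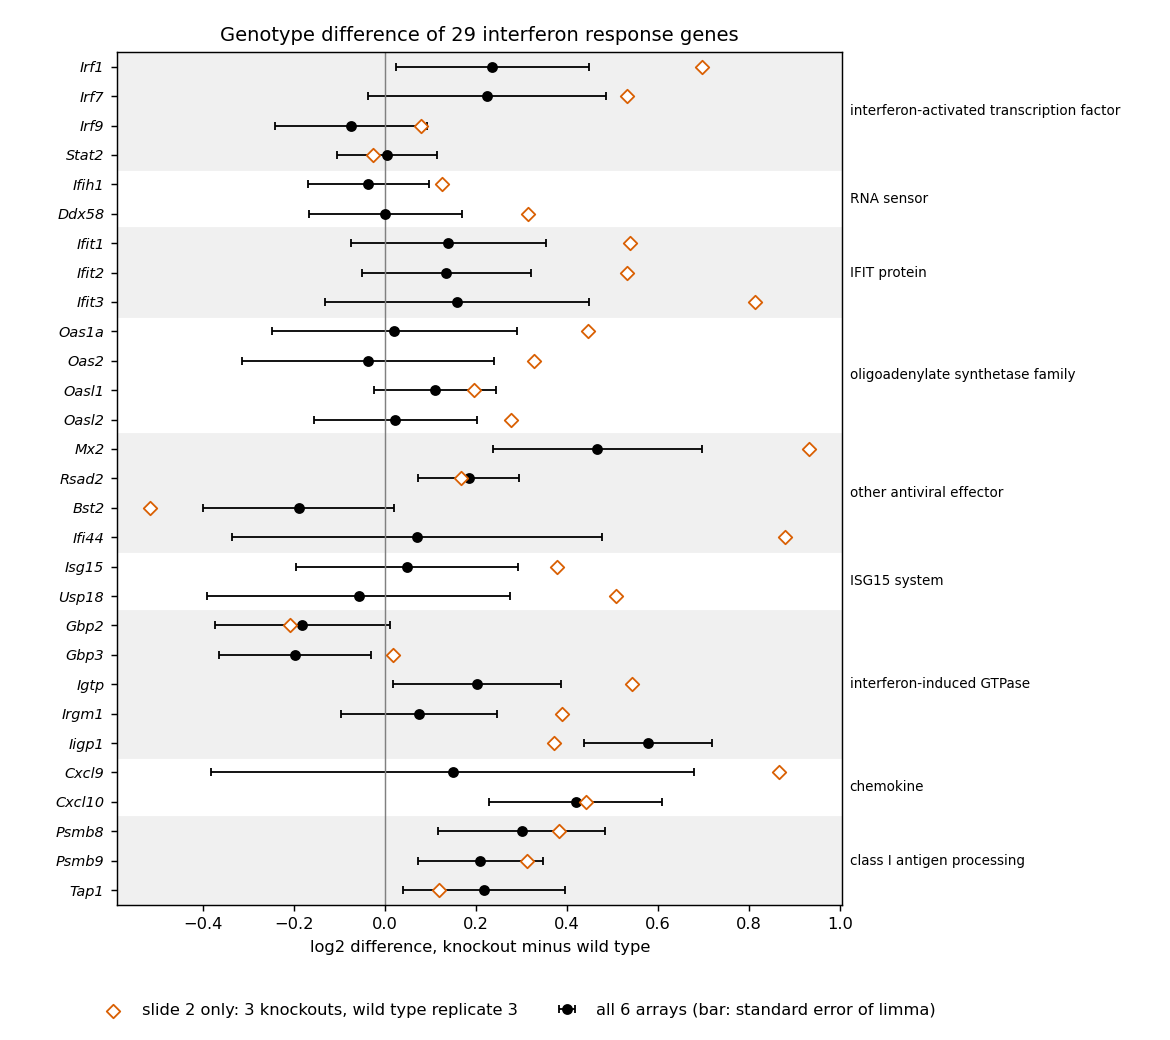
Log2 difference, knockout minus wild type, of 29 interferon response genes from all 6 arrays (black points with SEs of limma) and from slide 2 alone (open diamonds, 3 knockouts against wild type replicate 3, no error bar). On all arrays 22 lie above 0 and on slide 2 alone 26 do, and none passed the adjusted threshold.

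The ligands themselves were mostly not detected. Of 10 ligands and inducing cytokines listed, Ifna4, Ifnb1, Ifnk, Ifne, Ifng and Il12b were well above background on 0 of 6 arrays. The type II interferon itself, Ifng, is among these. Ifna1 was at -5.50, -5.47 and -4.91 in wild type and at -4.90, -4.84 and -4.94 in the knockout, a difference of 0.40 (SE 0.18). Its values are low on every array, and the interferon alpha genes are near-identical copies that a probe may not tell apart. Ifna2 and Il28b, an interferon lambda gene, differed by 0.29 (SE 0.26) and by 0.07 (SE 0.16). Ifna2 was well above background on 1 of 3 wild type arrays and on 3 of 3 knockout arrays, so it passed the filter through the knockout alone. No ligand was called.

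The receptors were well above background on all arrays. Ifnar1, a chain of the type I receptor, was at 0.90, 0.91 and 0.92 in wild type and at 1.41, 1.05 and 1.04 in the knockout. The groups did not overlap, and the difference was 0.26 (SE 0.13, limma, unadjusted p = 0.0967). Il10rb, a chain shared by the interferon lambda and interleukin-10 receptors, differed by -0.21 (SE 0.19), and Ifngr1, a chain of the type II receptor, by -0.09 (SE 0.11). Of the 6 receptors 2 were above 0 and 0 were called.

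Of 13 signal transducers and inhibitors 8 were above 0 and 0 were called, with a median difference of 0.02. Jak1, the kinase shared by both receptor types, differed by 0.21 (SE 0.15). Irf3, which starts interferon transcription after sensing, differed by -0.14 (SE 0.12). Socs1, a feedback inhibitor of the kinases, differed by -0.42 (SE 0.46).

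Of 14 nucleic acid sensors and adaptors 12 were tested, 9 were above 0 and 0 were called. Eif2ak2, which encodes the RNA-activated kinase PKR and is itself an interferon target, was at -1.70, -1.57 and -1.86 in wild type and at -1.32, -1.00 and -0.82 in the knockout. All 3 knockouts lay above all wild types, and the difference was 0.66 (SE 0.16, limma, unadjusted p = 0.00582, adjusted p = 1.00). Knockout replicate 2 was not the lowest knockout in this gene. Tlr7, an endosomal RNA sensor, was at -2.24, -2.25 and -1.05 in wild type and at -1.05, -1.61 and -1.13 in the knockout, a difference of 0.59 (SE 0.36). Tbk1, the kinase that activates IRF3, differed by -0.18 (SE 0.13).

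No further target outside the 31 genes passed the adjusted threshold. Of 22 other type I targets tested 13 were above 0, with a median of 0.05, and 0 were called. Cmpk2, a mitochondrial nucleotide kinase, was at -1.98, -1.90 and -1.83 in wild type and at -2.13, -2.45 and -2.07 in the knockout. It was lower in every knockout than in any wild type, with a difference of -0.31 and a standard error of 0.13 (limma, unadjusted p = 0.0545). Its neighbour on the chromosome, Rsad2, was higher in every knockout. Herc5 differed by 0.35 (SE 0.15) and Ifi203 by 0.17 (SE 0.20).

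Of 21 other type II targets tested 12 were above 0, with a median of 0.14, and 0 were called. Ccl5, a chemokine made by T cells among others, was at -1.01, -1.16 and -1.34 in wild type and at -0.51, -0.79 and -0.88 in the knockout. The groups did not overlap, and the difference was 0.45 (SE 0.15, limma, unadjusted p = 0.0216). Tgtp1, a GTPase of the same kind as Iigp1, was at -4.96, -5.35 and -6.39 in wild type and at -4.82, -4.83 and -4.69 in the knockout. Its groups did not overlap, the difference of 0.79 had an SE of 0.35, and 2 of 3 wild type arrays were well above background, so it passed the filter through the knockout alone. Its near-identical copy Tgtp2 had overlapping groups, at 2.29, 1.89 and 1.68 in wild type and at 1.92, 1.83 and 1.54 in the knockout, a difference of -0.19 (SE 0.19). The probes may not tell these copies apart. Nlrc5, the transactivator of class I genes, differed by 0.45 (SE 0.20), with overlapping groups. At an unadjusted p under 0.05, the 6 pathway lists held Eif2ak2 and Ccl5 and no other gene.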

How the data were processed

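Intensity values were deposited by the authors as scanner files, 1 per array, made with version 10.7.1.1 of Agilent Feature Extraction per the file headers. RNA was labelled with Cy3 per the labels' protocols. The processed intensity is background-subtracted, on a linear scale and not normalized between arrays. Probe coordinates follow mm9 per the file headers, and the place of probes in exons was not worked out. The deposited series table also holds intensity and served as an alternative.

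Control spots and spots flagged as outliers were left out, spots of a probe were averaged, and log2 was taken relative to the 75th percentile of non-control spots. Of 39429 probes, 24415 were kept, each well above background in every array of either the wild type or the knockout group. Genotypes were compared on all 6 arrays by a two-sided linear model fit (lmFit, then eBayes, limma version 3.58.1 under R 4.3.3), with Benjamini-Hochberg adjustment over all kept probes. The script was tested on simulated data. The small number of arrays limits precision. A gene was represented by its brightest kept probe, or its brightest probe where none was kept.

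The members and lists were chosen with earlier results of these data known. Named genes were all members, Selenbp1, and from each pathway list the genes past the threshold or otherwise the 3 with the smallest unadjusted p. Of the immune and ovarian cell markers, those whose groups did not overlap were named after their values were seen. Ifi27 and Warsx had no probe under their name, and Herc6 was matched to Herc5 through a synonym. Summaries used pandas 2.3.3 with numpy 2.4.6 (Python 3.11.15), and figures used matplotlib 3.10.9.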

Additional observations from a re-analysis of the deposited data

How the results depend on the processing

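No member was called under any of the 18 alternatives. Of 521 recomputed member differences 460 kept the sign reported and 61 took the opposite one, and 13 genes had 1 sign throughout (Irf1, Irf7, Oasl1, Mx2, Rsad2, Gbp2, Igtp, Iigp1, Cxcl10, Bst2, Psmb8, Psmb9 and Tap1). With slide as a fixed block or on slide 2 alone, the member median was 0.378 and the type I median 0.352. Type I minus type II was 0.106 with the block but -0.0247 on slide 2 alone. The number of probes called, 1 (Selenbp1) as reported, was 0 without the filter on background, with slide as a fixed block and on slide 2 alone. Leaving out each array gave 0 to 19 probes called (19 without wild type replicate 3), a member median of -0.0645 to 0.220, a type I median of -0.111 to 0.163, a type II median of 0.0189 to 0.311 and type I minus type II of -0.129 to 0.0542. The lowest of each median was without wild type replicate 3. With array weights the member median was 0.0177, and with normexp it was 0.0515.

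The replicate numbers used here follow the order of the samples within each group, and the labels give no pairing. Deviations of same-numbered samples correlated at -0.33, 0.30 and -0.03. These values cannot decide whether any samples were paired, since the numbers are not those of the labels. With the replicate block the member median was 0.110 and 0 probes were called.

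Some member differences turned sign. With array weights they became -0.032 for Ifit2, -0.11 for Ifit3, -0.050 for Oas1a, -0.37 for Cxcl9, -0.16 for Ifi44, -0.051 for Ddx58. With normexp they became -0.065 for Ifit2, -0.052 for Oasl2, -0.023 for Stat2, -0.033 for Cxcl9, -0.022 for Ddx58. Median scaling gave -0.0083 for Stat2, -0.012 for Ddx58, quantile normalization -0.0025 for Stat2, -0.017 for Ddx58, and the mean of kept probes -0.0029 for Ddx58. On slide 2 alone, and with slide as a fixed block, the values were 0.079 for Irf9, 0.33 for Oas2, -0.026 for Stat2, 0.51 for Usp18, 0.017 for Gbp3, 0.13 for Ifih1. With slide as a random block they were 0.043 for Oas2, -0.0025 for Stat2, 0.067 for Usp18. Leaving out each array in turn gave -0.036 to 0.082 for Stat2, -0.34 to 0.22 for Usp18, -0.13 to 0.022 for Ifih1, -0.22 to 0.22 for Oas2, -0.060 to 0.28 for Ifit1, -0.065 to 0.26 for Ifit2, -0.17 to 0.38 for Ifit3, -0.13 to 0.26 for Isg15, -0.19 to 0.25 for Oas1a, -0.11 to 0.14 for Oasl2, -0.083 to 0.17 for Irgm1, -0.21 to 0.70 for Cxcl9, -0.34 to 0.35 for Ifi44, -0.16 to 0.14 for Ddx58, -0.19 to 0.075 for Irf9. The cause was not tested.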

Other observations

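Markers of the ovary's own cells also varied between ovaries. The list median of 6 granulosa markers (such as Fshr and Amh) was 0.13, 0.15 and -0.57 in wild type and -0.13, -0.20 and 0.41 in the knockout, so wild type replicate 3 was lowest here too. That of 5 oocyte markers was 0.39, 0.42 and -0.46 in wild type and -0.13, 0.28 and -0.49 in the knockout. That of 5 theca and luteal steroid cell markers was 0.24, 0.02 and 0.86 in wild type and 0.47, -0.88 and 0.14 in the knockout, highest in wild type replicate 3 and lowest in knockout replicate 2. Hsd3b1 has no value in wild type replicates 1 and 2, where its spots were marked as outliers. No gene of these 3 lists passed the adjusted threshold with limma, and 0 had an unadjusted p under 0.05. Foxl2, a granulosa marker, was lower in every knockout than in any wild type, with a difference of -0.19 (SE 0.10). It too was picked after its values were seen, and 4.89% of all genes were lower in this way. Endothelial markers had list medians of -0.21, -0.11 and 0.11 in wild type and 0.52, -0.41 and 0.08 in the knockout.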
